A study of Mus musculus with 9 samples.

Results

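The mitochondrial chromosome of the mouse carries 37 genes, and all 37 were followed in RNA-seq libraries of MIN6, an insulin-producing line from a mouse insulinoma that stands in for pancreatic beta cells. They were chosen by position alone, as every gene annotated on the mitochondrial chromosome, and are 37 of the 52408 genes to which the deposited transcripts could be assigned. Of these, 13 encode proteins, 2 encode ribosomal RNAs and 22 encode transfer RNAs. One strand carries mt-Nd6 and 8 tRNA genes, 9 genes in all, and the other carries the remaining 28, namely 12 coding genes, both rRNA genes and 14 tRNA genes.

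The 9 libraries fell into 3 groups of 3. The first held MIN6 cells that overexpressed Nr4a1, an orphan nuclear receptor, and were also given EGCG (epigallocatechin gallate, a catechin of green tea), written EGCG + OE here. The second held cells that overexpressed Nr4a1 without EGCG (OE), and the third held untransfected MIN6 cells (control). Every library came from this single cell line and carried the label batch 1. The sources used here state neither the dose and duration of EGCG nor how Nr4a1 was introduced, and because the control cells were untransfected, transfection and Nr4a1 cannot be told apart. Nr4a1 itself was at 46.2, 60.9 and 54.5 TPM in EGCG + OE, 128.3, 122.5 and 165.2 TPM in OE, and 0.630, 0.780 and 0.760 TPM in control, so the EGCG + OE cells also held less Nr4a1 transcript than the OE cells.

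Mitochondrial DNA is transcribed from both strands into long precursor RNAs that run across many genes. The tRNAs lie between most of the other genes, and their excision releases the mRNAs and rRNAs. The 13 proteins are core subunits of respiratory complexes I, III and IV and of the ATP synthase, while all their partner subunits, the mitochondrial RNA polymerase and the RNA processing enzymes are encoded in the nucleus. In beta cells the ATP made by this chain links the metabolism of glucose to the release of insulin.

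The deposited unit is TPM, which gives each transcript's share of its library after correction for length, and it was summed here per gene. Since this unit carries no depth, the number of reads behind a value is unknown and no counting interval can be given. In bulk RNA a lower share from fewer cells, from less RNA per cell or from more of other RNAs cannot be told apart. The labels do not say whether the 3 libraries of a group came from separate cultures, so a p-value here reflects how far these libraries scatter, which may be technical. Of 12 beta cell markers 11 passed the filter on low values, with sums of 21029 to 22156 TPM in EGCG + OE, 26519 to 26938 TPM in OE and 18979.6 to 21105 TPM in control, while fibroblast and immune markers summed to at most 0.890 TPM in any library. Markers of other islet hormone cells summed to 290.98 to 324.5 TPM in EGCG + OE, 727.3 to 808.5 TPM in OE and 314.2 to 332.6 TPM in control, nearly all of it the glucagon gene Gcg, the only 1 of these 5 markers that passed the filter; its part in the results was not tested. The control libraries stood apart in 1 respect: 1986 chemoreceptor genes and pseudogenes, whose functional members act in sensory neurons, summed to 10.3 to 15.4 TPM in EGCG + OE, 5.75 to 6.82 TPM in OE and 66.5 to 131.3 TPM in control.

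All 22 mitochondrial tRNA genes were listed at 0 TPM in all 9 libraries. These genes are 59 to 75 bases long, and the shortest transcript of any kind with a value above 0 had 112 bases. The table lists 2372 transcripts shorter than that, and 0 of them had a value above 0 in any library. From 100 to 119 bases 2.17% of transcripts were above 0 in at least 1 library, from 120 to 149 bases 16.1%, from 500 to 999 bases 75.3%, and at 1000 bases and over 86.5%. A listed 0 below 112 bases therefore carries no information on the tRNAs, and no ratio or test involving them could be computed. The longest of them, mt-Tl1, which encodes a leucine tRNA, and the shortest, mt-Ts2, which encodes a serine tRNA, are printed to show the size of the genes that fall under this limit, 5′ to 3′ on their own strand, from the GENCODE M21 transcripts of the GRCm38 build.
mt-Tl1: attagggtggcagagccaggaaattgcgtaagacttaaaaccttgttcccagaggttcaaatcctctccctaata
mt-Ts2: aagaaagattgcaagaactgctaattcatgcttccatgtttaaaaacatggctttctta

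**Figure D1:**
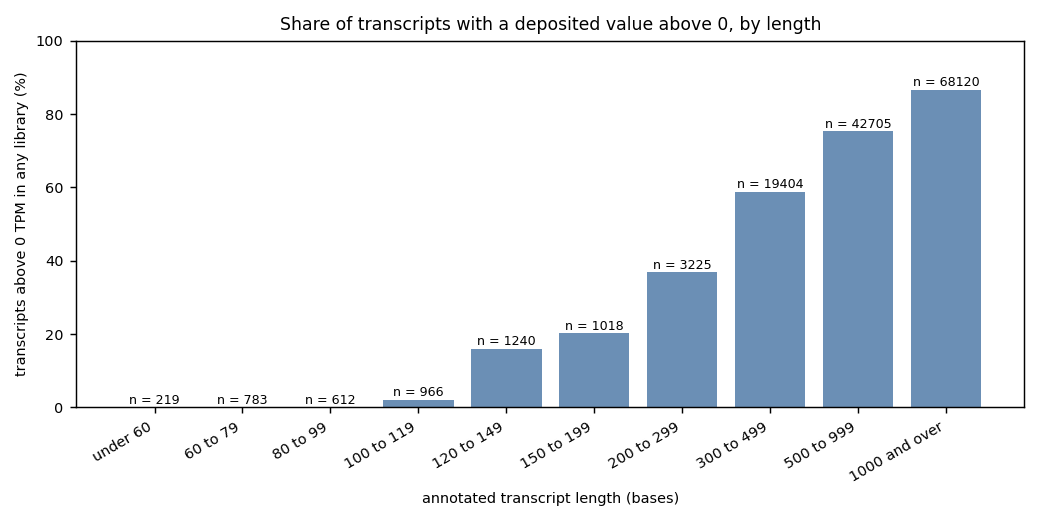
Share of transcripts with a deposited value above 0 in at least 1 of the 9 libraries (y axis, percent) by annotated transcript length (x axis, bases); the number over each bar is the number of transcripts in that class. The bars are at 0 for every class under 100 bases, where the mitochondrial tRNAs lie, and reach 86.5% at 1000 bases and over.

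The other 15 genes, 13 coding and 2 rRNA, passed the filter of at least 1 TPM in at least 3 libraries, and the lowest value of any of them in any library was 70.2 TPM. Together they held 8.88% ± 0.470 of all TPM in EGCG + OE, 7.52% ± 0.244 in OE and 11.6% ± 0.660 in control (SD, n = 3 each). Most of this was the large ribosomal RNA mt-Rnr2, which averaged 65813 ± 2509 TPM in EGCG + OE, 53592 ± 854.1 TPM in OE and 81195 ± 3794 TPM in control. On the per-length TPM scale the most abundant coding genes in control were mt-Co1 and mt-Atp8, at 6532 ± 458.9 and 5413 ± 394.7 TPM, whose ranges in the control libraries did not overlap. The least abundant in control was mt-Nd4l, at 161.4 ± 42.8 TPM, next to mt-Nd3 at 242.5 ± 56.1 TPM, and the ranges of these neighbours overlapped. This order holds for the deposited values only. With the nuclear copies described next added, mt-Nd4l was at 917.1 ± 83.4 TPM and mt-Nd3 at 1505 ± 69.3 TPM in control. These means lay above mt-Nd6 at 645.1 ± 169.4 TPM and mt-Nd5 at 645.7 ± 135.6 TPM. At the top, mt-Co2 with its copy was at 5022 ± 304.2 TPM in control, in a range that overlapped that of mt-Atp8.

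**Figure D2:**
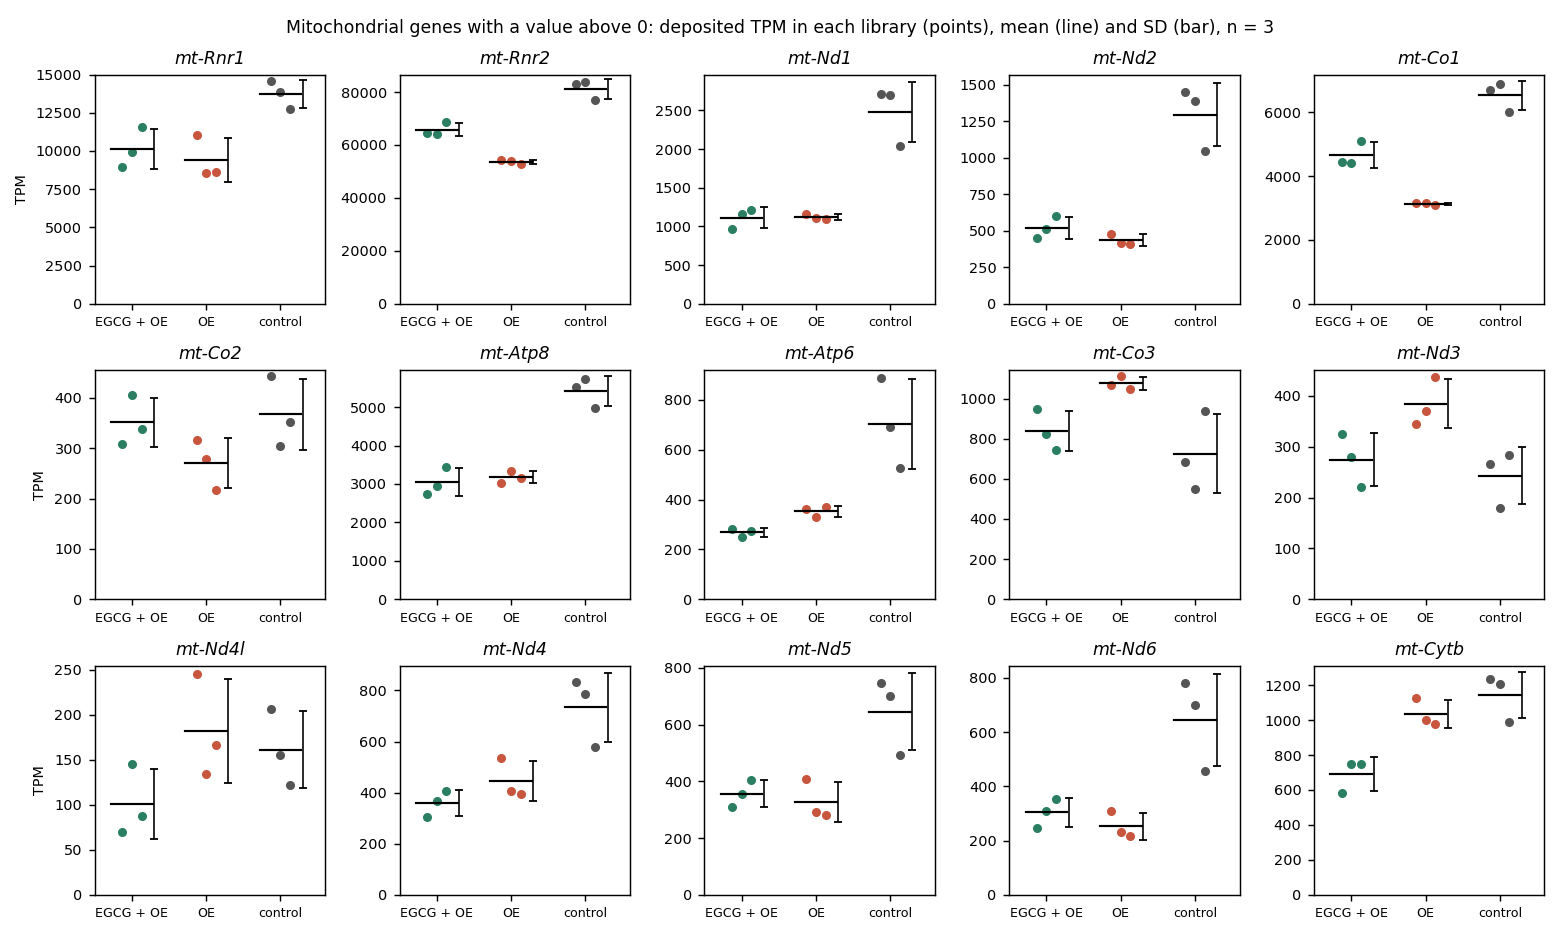
Deposited TPM (y axis, from 0) of the 15 mitochondrial genes with values above 0, in EGCG + OE, OE and control; points are libraries, lines are means and bars are SD with n = 3. For mt-Nd1, mt-Nd2, mt-Co1 and mt-Atp8 the control points lie above both other groups, and for mt-Co3 and mt-Nd3 the OE points lie above control.

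Deposited levels of 7 coding genes are entangled with copies of mitochondrial DNA in the nuclear genome. A search of all annotated transcripts for matches of at least 99% identity over at least 100 bases, a rule chosen after the data were seen, found 7 pseudogenes on chromosome 1, all read from its minus strand. Gm28661 was identical to mt-Co2 over 681 bases, Gm10925 to mt-Atp6 over 678, Gm28437 to mt-Co3 over 783, Gm10222 to mt-Nd4l over 294 and Gm28439 to mt-Nd4 over 876. Gm28438 matched mt-Nd3 over 345 bases with the single substitution T3C, and Gm29216 matched mt-Co1 over 483 bases with the single substitution A1066T, each counted from 1 at the first base of the mitochondrial gene, the mitochondrial base first. A read from inside an identical stretch belongs to both genes, and the split between them rests on the estimation that the authors ran. The first 60 bases of 3 pairs are printed to show how little there is to separate them: for mt-Nd3 the direction in OE against control turned when the copy was added, for mt-Co3 the call ended, and for mt-Co2 most of the signal had been assigned to the copy. They run 5′ to 3′ on the strand of each gene, from the GENCODE M21 transcripts of GRCm38, with the differing base in capitals.
mt-Nd3: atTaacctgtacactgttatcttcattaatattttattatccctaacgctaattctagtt
Gm28438: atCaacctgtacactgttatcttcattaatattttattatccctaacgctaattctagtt
mt-Co3: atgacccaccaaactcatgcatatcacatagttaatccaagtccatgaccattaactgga
Gm28437: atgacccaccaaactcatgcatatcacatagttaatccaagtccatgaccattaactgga
mt-Co2: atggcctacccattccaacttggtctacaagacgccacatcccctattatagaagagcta
Gm28661: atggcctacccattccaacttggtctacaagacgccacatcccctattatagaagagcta

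For 5 of these genes most of the signal had been assigned to the nuclear copy. Gm28661 was at 2469, 2745 and 2935 TPM in EGCG + OE, 2285, 2369 and 2314 TPM in OE, and 4773, 4915 and 4337 TPM in control, and it held 87.1% to 94.1% of the length-weighted sum of copy and mt-Co2 across the 9 libraries. Gm28438 was at 529.1, 709.4 and 698.5 TPM in EGCG + OE, 551.9, 592.0 and 482.1 TPM in OE, and 1188, 1325 and 1307 TPM in control, a share of 52.2% to 88.0% of its sum with mt-Nd3. Both copies were lower in every EGCG + OE and OE library than in any control library. Gm28437 was at 1507, 1904 and 1776 TPM in EGCG + OE, 2204, 2167 and 2073 TPM in OE, and 2266, 2492 and 2452 TPM in control, which is 61.4% to 81.9% of its sum with mt-Co3. The share of Gm10925 in its sum with mt-Atp6 was 65.1% to 81.7%, and that of Gm10222 in its sum with mt-Nd4l was 62.6% to 85.3%. For mt-Co1 and mt-Nd4 the copies held at most 6.09% and 0.465%. Results are given as deposited and, where it matters, with the copy added to its mitochondrial gene in proportion to annotated length. That sum is only approximately free of the split, since the lengths used in the estimation may differ from the annotated ones. It also counts any true transcript of the nuclear copy as mitochondrial. Copies of 95% to 99% identity on chromosomes 2 and 13 reached at most 7.09 TPM and were not added.

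**Figure D3:**
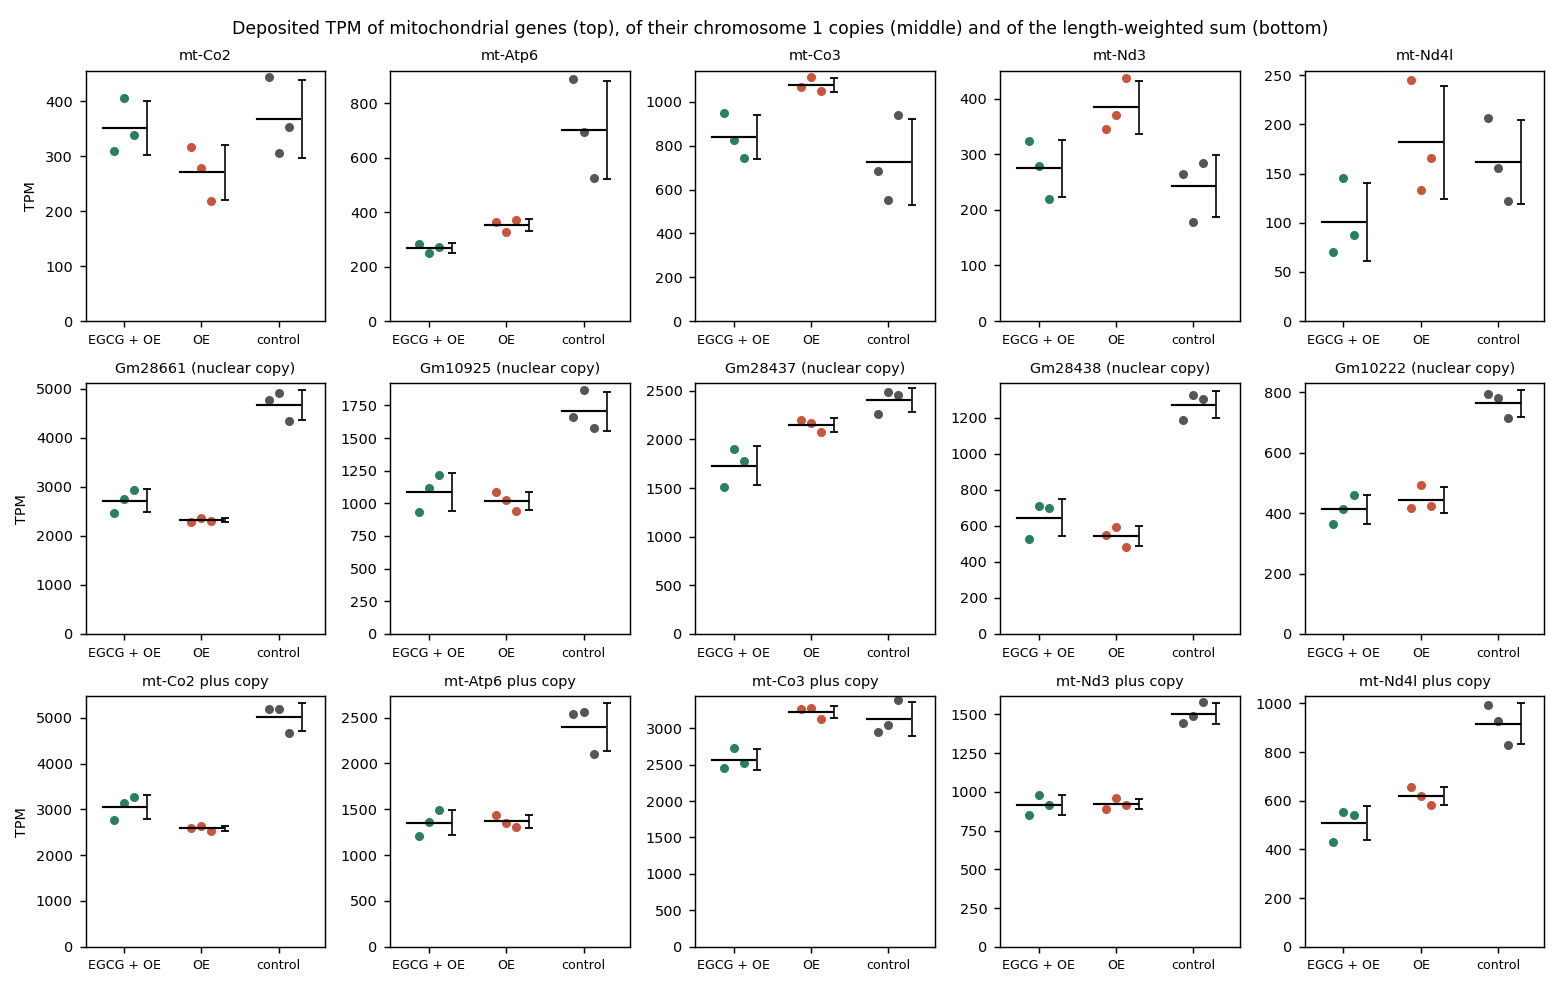
Deposited TPM (y axes, from 0) of 5 mitochondrial genes (top), of their chromosome 1 copies (middle) and of the length-weighted sum (bottom) in EGCG + OE, OE and control; points are libraries, lines are means and bars are SD with n = 3. For mt-Nd3 the OE points lie above control in the top row and below control in the bottom row.

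Overexpression of Nr4a1 was first set against untransfected cells. In OE cells 10 of the 15 mitochondrial genes with values were lower than in control, 2 were higher and 3 did not pass the test, at a Benjamini-Hochberg adjusted p under 0.05 in limma over all 11950 genes tested. In this comparison 59.5% of all tested genes passed the test, 38.2% higher and 21.3% lower. The median log2 fold change, a difference of mean log2(TPM + 1), was -0.71 over the 15 mitochondrial genes and 0.10 over all tested genes. With the copies added 13 were lower, 0 were higher and 2, mt-Co3 and mt-Cytb, did not pass, with a median of -0.77, and 59.5% of all genes passed there too. Leaving out any 1 library kept every one of the 12 calls and their direction. Median-ratio scaling moved the median of all genes by -0.11, to -0.01, and left 11 mitochondrial genes lower and 1 higher. There mt-Co2 passed as lower (adjusted p = 0.0175) and mt-Co3 no longer passed (adjusted p = 0.0532).

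The deposited values of both ribosomal RNAs, which form the core of the mitochondrial ribosome, were lower in OE than in control. Whether rRNA was removed in library preparation, and how evenly between libraries, was not examined here. The small-subunit rRNA mt-Rnr1 had 8964, 9946 and 11564 TPM in EGCG + OE, 11038, 8534 and 8617 TPM in OE, and 14610.2, 13865 and 12776 TPM in control. Every OE and EGCG + OE library lay below every control library, while the OE and EGCG + OE ranges overlapped. Among all tested genes 23.6% had their OE libraries entirely below control. Against control its log2 fold change in OE was -0.56 ± 0.148 (SE; limma, Benjamini-Hochberg adjusted p = 0.00985). The large-subunit rRNA mt-Rnr2 had 64604, 64138 and 68697 TPM in EGCG + OE, 54294, 53840.2 and 52641 TPM in OE, and 82986, 83762 and 76836 TPM in control. No group overlapped another, with OE at the bottom and control at the top. Its log2 fold change in OE against control was -0.60 ± 0.162 (limma, adjusted p = 0.0107). That call ended without a filter on low values (adjusted p = 0.141) and with quantile normalization, which gives features of the same rank in each library 1 common value and set this difference to 0.0.

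Complex I, which passes electrons from NADH into the chain, holds 7 of the 13 proteins, and 5 of its genes fell with overexpression. Among the 15 genes mt-Nd2 had the lowest fold change. It had 447.9, 515.1 and 599.0 TPM in EGCG + OE, 481.1, 413.1 and 406.6 TPM in OE, and 1452, 1391 and 1048 TPM in control, so that no OE or EGCG + OE library reached the lowest control library. In OE it stood at 33.4% of the control mean, a log2 fold change of -1.57 ± 0.146 (limma, adjusted p = 2.54e-05). The neighbouring gene mt-Nd1 had 959.9, 1154 and 1217 TPM in EGCG + OE, 1158, 1105 and 1098 TPM in OE, and 2711, 2698 and 2037 TPM in control. Control was again apart from both other groups, and the OE log2 fold change was -1.13 ± 0.129 (adjusted p = 8.18e-05). For mt-Nd4 the values were 305.1, 365.9 and 407.3 TPM in EGCG + OE, 536.0, 405.6 and 395.5 TPM in OE, and 834.3, 787.2 and 580.2 TPM in control, with 1 OE library close to the lowest control library. Its OE log2 fold change was -0.71 ± 0.171 (adjusted p = 0.00576). The longest coding gene, mt-Nd5, had 308.9, 356.1 and 402.9 TPM in EGCG + OE, 409.1, 290.0 and 280.8 TPM in OE, and 746.2, 699.5 and 491.4 TPM in control, with both other groups below control. It fell by 0.98 ± 0.190 on the log2 scale in OE (adjusted p = 0.00189). The values of mt-Nd6, which is read from the opposite strand, are given with the strands.

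For the other 2 complex I genes the deposited direction depended on the nuclear copies. As deposited, mt-Nd3 had 324.3, 279.0 and 220.5 TPM in EGCG + OE, 344.9, 370.7 and 437.7 TPM in OE, and 265.1, 178.7 and 283.9 TPM in control. Each OE library lay above each control library, and the gene rose by 0.68 ± 0.192 on the log2 scale (limma, adjusted p = 0.0129). With Gm28438 added the values were 848.9, 982.3 and 912.9 TPM in EGCG + OE, 892.0, 957.6 and 915.6 TPM in OE, and 1443, 1492 and 1579.9 TPM in control. All OE libraries then lay below control, with a log2 fold change of -0.71 ± 0.0747 (limma, adjusted p = 5.31e-05). As deposited, mt-Nd4l had 70.2, 145.3 and 87.1 TPM in EGCG + OE, 245.4, 133.7 and 166.1 TPM in OE, and 206.8, 155.5 and 121.9 TPM in control. The groups overlapped throughout, and OE did not differ from control by the test (0.16 ± 0.306, adjusted p = 0.679). With Gm10222 added mt-Nd4l had 430.0, 555.1 and 542.6 TPM in EGCG + OE, 656.7, 620.3 and 584.1 TPM in OE, and 993.5, 929.5 and 828.2 TPM in control. No OE library then reached control, and the log2 fold change was -0.56 ± 0.1104 (adjusted p = 0.00202).

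Cytochrome c oxidase, complex IV, takes 3 catalytic core subunits from the mitochondrial genome, and they did not move alike. The largest, mt-Co1, had 4440.2, 4411 and 5116 TPM in EGCG + OE, 3145, 3154 and 3099.5 TPM in OE, and 6695, 6888 and 6014 TPM in control. No group overlapped another, EGCG + OE lay between OE and control, and the OE libraries differed little among themselves. In OE it was at 48.0% of the control mean, with a log2 fold change of -1.06 ± 0.0976 (limma, adjusted p = 2.44e-05). As deposited, mt-Co2 had 309.4, 405.4 and 338.9 TPM in EGCG + OE, 316.4, 278.6 and 217.4 TPM in OE, and 444.0, 305.3 and 352.2 TPM in control, with overlap between all groups. Its OE log2 fold change of -0.44 ± 0.173 missed the threshold (adjusted p = 0.0529), and it passed with a filter of 5 TPM (0.0499), with median-ratio (0.0175) or nuclear scaling (0.0257), without control replicate 2 (0.029) and without OE replicate 1 (0.0328). With Gm28661 added mt-Co2 had 2768, 3138 and 3261 TPM in EGCG + OE, 2591, 2637 and 2521 TPM in OE, and 5197, 5198 and 4671 TPM in control. OE then lay below the other groups without overlap, at -0.96 ± 0.0905 against control (limma, adjusted p = 2.75e-05).

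The subunit that departed from this was mt-Co3. As deposited it had 947.4, 824.0 and 746.0 TPM in EGCG + OE, 1068, 1113 and 1049.5 TPM in OE, and 684.5, 551.9 and 939.7 TPM in control. OE was above both other groups, and 1 control library was well above the other control libraries. The gene was higher in OE by 0.60 ± 0.172 on the log2 scale (limma, adjusted p = 0.0135). With Gm28437 added the values were 2452, 2725 and 2519.8 TPM in EGCG + OE, 3269, 3278 and 3119.5 TPM in OE, and 2948, 3041 and 3389 TPM in control. OE and control then overlapped, at 0.05 ± 0.0845 (adjusted p = 0.661), and the sign turned to -0.04 when the values were also scaled over nuclear protein-coding genes.

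The ATP synthase genes mt-Atp8 and mt-Atp6, which encode subunits of its membrane part, overlap by 43 bases and are read from 1 strand. The end of mt-Atp8 and the start of mt-Atp6 are printed to show the 43 bases that both genes carry. The last 70 bases of mt-Atp8 and the first 70 of mt-Atp6 run 5′ to 3′, from the GENCODE M21 transcripts of GRCm38, with the shared 43 bases in capitals.
mt-Atp8: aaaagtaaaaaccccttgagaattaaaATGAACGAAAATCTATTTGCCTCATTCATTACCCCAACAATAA
mt-Atp6: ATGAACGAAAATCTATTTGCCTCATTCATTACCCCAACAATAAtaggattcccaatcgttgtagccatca

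Both genes fell with overexpression. The shorter, mt-Atp8, had 2735, 2955 and 3448 TPM in EGCG + OE, 3030.3, 3341 and 3156 TPM in OE, and 5529.7, 5736 and 4973 TPM in control. OE and EGCG + OE overlapped well below control, and the OE log2 fold change was -0.77 ± 0.109 (limma, adjusted p = 0.000311). As deposited, mt-Atp6 had 282.4, 248.8 and 272.7 TPM in EGCG + OE, 362.9, 328.1 and 369.4 TPM in OE, and 887.6, 692.7 and 526.6 TPM in control. The groups were apart from each other, with EGCG + OE at the bottom, and the OE log2 fold change was -0.96 ± 0.160 (adjusted p = 0.000782). With Gm10925 added mt-Atp6 had 1210.3, 1359 and 1488 TPM in EGCG + OE, 1442, 1351 and 1309 TPM in OE, and 2542, 2555 and 2099 TPM in control, a log2 fold change of -0.81 ± 0.106 in OE (adjusted p = 0.000194). The log2 ratio of mt-Atp8 to mt-Atp6 averaged 3.50 ± 0.201 in EGCG + OE, 3.17 ± 0.157 in OE and 2.98 ± 0.307 in control as deposited. With the copy added it was 1.17 ± 0.0461, 1.22 ± 0.126 and 1.18 ± 0.0620 in the same groups. These genes share an mRNA, and with the copy added the ratio lay between 1.07 and 1.31 in all 9 libraries.

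Complex III takes a single protein from this genome, cytochrome b. Its gene mt-Cytb had 581.1, 746.3 and 748.9 TPM in EGCG + OE, 1129, 998.9 and 978.5 TPM in OE, and 1234, 1208 and 991.5 TPM in control. OE and control overlapped, and EGCG + OE lay below both. No match past the identity rule was found for mt-Cytb among the annotated transcripts, so no copy was added. Identifiers that did not match the annotation were not searched. In OE against control the log2 fold change of mt-Cytb was -0.14 ± 0.125 (limma, adjusted p = 0.358).

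**Figure D4:**
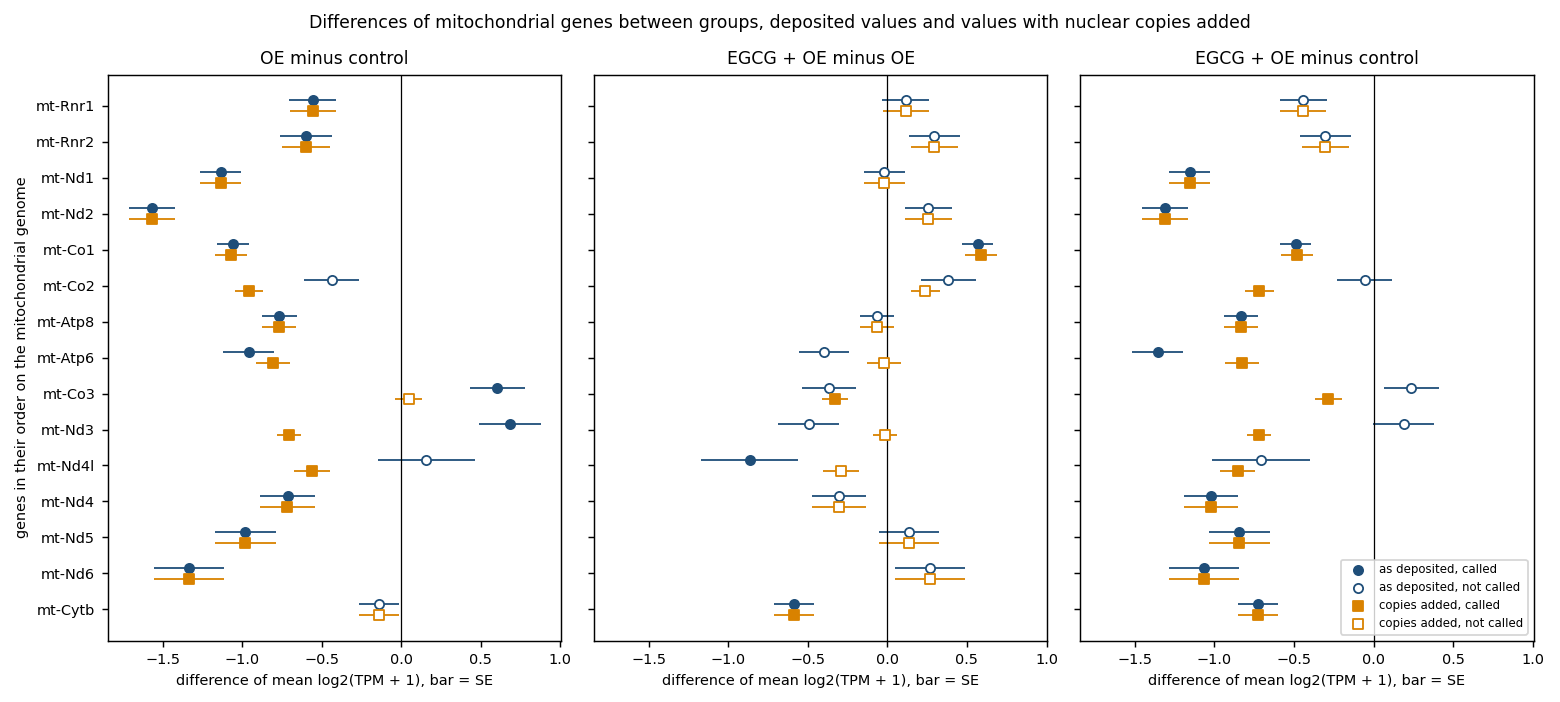
Log2 fold changes, as differences of mean log2(TPM + 1) with SE bars (x axis), of 15 mitochondrial genes in their order on the genome (y axis), for OE minus control, EGCG + OE minus OE and EGCG + OE minus control; circles are deposited values, squares are values with nuclear copies added, and filled symbols passed an adjusted p of 0.05. In the OE panel mt-Co3 and mt-Nd3 are the filled circles right of 0, and no filled square lies right of 0.

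Summed over the 13 coding genes, the deposited TPM was 11957, 12715 and 13959.7 in EGCG + OE, 12537, 12161 and 11871 in OE, and 22470.3, 21991 and 18814 in control. Both other groups lay below every control library and overlapped each other. The OE mean was 57.8% of the control mean and the difference was -8902 TPM (two-sided exact permutation test, p = 0.1, the smallest that 3 against 3 libraries allow, 0.171 after Benjamini-Hochberg adjustment over 12 tests). Control replicate 3 had the lowest sum of the control libraries, and it was also the control library with the lowest chemoreceptor sum, 66.5 TPM against 131.3 and 109.6 TPM. The part of the chemoreceptor signal in the difference was not tested.

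EGCG was then compared within cells that overexpressed Nr4a1. Of the 15 genes 1 rose with EGCG, mt-Co1, 2 fell, mt-Cytb and mt-Nd4l, and 12 did not pass the test, while 53.0% of all tested genes passed it, 18.8% higher and 34.1% lower. In mt-Co1 the rise was 0.57 ± 0.0976 on the log2 scale (limma, adjusted p = 0.00117), to 148.6% of the OE mean, and with its small copy added it was 0.59 ± 0.0988 (adjusted p = 0.00102). Cytochrome b fell by 0.59 ± 0.125 (adjusted p = 0.00378), to 66.8% of the OE mean, with each EGCG + OE library below each OE library, as was so for 41.4% of all tested genes. Both calls held in every alternative run, including the scalings and each left-out library. The log2 fold change of mt-Nd4l, -0.87 ± 0.306 (adjusted p = 0.0387), was not stable: the groups overlapped, and the call ended under 12 of the alternatives, among them the addition of its copy (-0.29 ± 0.1104, adjusted p = 0.0501).

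The other complex IV genes went in opposite directions with EGCG, and 1 of them passed once copies were added. The sum of mt-Co3 and Gm28437 was lower in every EGCG + OE library than in any OE library, by 0.33 ± 0.0845 on the log2 scale (limma, adjusted p = 0.00949), and the sum of mt-Co2 and Gm28661 was higher in every EGCG + OE library at 0.24 ± 0.0905, just short of the threshold (adjusted p = 0.0502). When these sums were also scaled over nuclear protein-coding genes the calls changed places: mt-Co2 passed (0.39, adjusted p = 0.00454) and mt-Co3 did not (-0.18, adjusted p = 0.114). Without the copies neither mt-Co3 (-0.37 ± 0.172, adjusted p = 0.1) nor mt-Co2 (0.38 ± 0.173, adjusted p = 0.0903) passed. Among the genes that had fallen most with overexpression, mt-Nd1 differed from OE by -0.02 ± 0.129 (adjusted p = 0.909) and mt-Nd2 by 0.26 ± 0.146 (adjusted p = 0.165). The large rRNA lay above OE in every EGCG + OE library, with a log2 fold change of 0.30 ± 0.162 that did not pass (adjusted p = 0.152). It passed without the variance trend (adjusted p = 0.00218), with a pseudocount of 5 (0.0413), with a filter of 5 TPM (0.0168) and with copies and nuclear scaling (0.0371).

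The median of the 15 genes was -0.02, against -0.09 for all tested genes, and it turned to 0.10 with median-ratio scaling and to 0.13 when scaled over nuclear protein-coding genes, where the median over all genes was 0.04. Under both of those scalings mt-Nd2 and mt-Co2 passed as higher, as did mt-Co2 with quantile normalization. Without control replicate 3, which enters this comparison only through the shared estimate of the spread, 6 mitochondrial genes passed in place of 3, the added ones being mt-Atp6 (adjusted p = 0.00887), mt-Co3 (0.0178) and mt-Nd3 (0.0449), all lower as deposited. With the copies added and all libraries kept, mt-Atp6 differed from OE by -0.02 ± 0.106 (adjusted p = 0.892) and mt-Nd3 by -0.013 ± 0.0747 (adjusted p = 0.899). Summed over the coding genes EGCG + OE exceeded OE by 687.3 TPM, within the spread between libraries (two-sided exact permutation test, p = 0.4, 0.4 after adjustment over 12 tests).

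Set directly against control, EGCG + OE cells had lower levels of most mitochondrial genes with values. Of the 15 genes 9 were lower than in control, 0 were higher and 6 did not pass, where 18.2% of all tested genes passed, 11.1% higher and 7.1% lower. Those were mt-Nd1, mt-Nd2, mt-Nd4, mt-Nd5, mt-Nd6, mt-Co1, mt-Atp8, mt-Atp6 and mt-Cytb, with a median over all 15 of -0.73 against 0.02 for all tested genes. The lowest were mt-Atp6 (-1.36 ± 0.160; limma, adjusted p = 0.00271), which moved to -0.83 ± 0.106 with its copy, mt-Nd2 (-1.31 ± 0.146, adjusted p = 0.00226) and mt-Nd1 (-1.15 ± 0.129, adjusted p = 0.00226). With copies added all 13 coding genes passed as lower, from -1.31 in mt-Nd2 to -0.28 ± 0.0845 in mt-Co3 (adjusted p = 0.0476). The rRNAs did not pass, at -0.44 ± 0.148 for mt-Rnr1 (adjusted p = 0.0675) and -0.30 ± 0.162 for mt-Rnr2 (adjusted p = 0.213), although every EGCG + OE library was below every control library for both. Some alternatives called them lower: mt-Rnr1 with a filter of 5 TPM (0.041), with median-ratio scaling (0.0475), without the variance trend (0.0401), without control replicate 3 (0.048) and without EGCG + OE replicate 3 (0.0477), and mt-Rnr2 with that filter (0.0374) and without the trend (0.0113). Of all genes 13.8% had EGCG + OE libraries entirely below control.

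For 3 of these genes the call was lost when single libraries were left out, while the fold change stayed close to its value with all libraries. The call of mt-Co1 (-0.49 ± 0.0976, adjusted p = 0.0134) ended without control replicate 2 (-0.45, adjusted p = 0.0517) or EGCG + OE replicate 1 (-0.46, adjusted p = 0.0541), with only the libraries of these groups (-0.49, adjusted p = 0.0523) and with quantile normalization (-0.21, adjusted p = 0.140). That of mt-Nd5 (-0.84 ± 0.190, adjusted p = 0.0199) ended without control replicate 1 (0.0661) or 2 (0.0652) and without EGCG + OE replicate 1 (0.0729) or 2 (0.0528), at log2 fold changes of -0.73 to -0.85. That of mt-Nd6 (-1.07 ± 0.221, adjusted p = 0.0150) ended without control replicate 2 (-0.99, adjusted p = 0.0517) or EGCG + OE replicate 1 (-0.92, adjusted p = 0.0592). The number of mitochondrial genes called ran from 6 to 11 over the libraries left out. All were lower, except that without control replicate 3 there were 10 lower and 1 higher. Over all genes it was 2172, and 988 without control replicate 1, 974 without control replicate 2, 735 without EGCG + OE replicate 1 and 1246 without EGCG + OE replicate 2. The coding sum in EGCG + OE was 61.0% of the control mean (difference -8215 TPM, two-sided exact permutation test, p = 0.1, 0.171 after adjustment). The comparisons share the OE or the control libraries, so their values are given side by side and no overlap between them is read as a result.

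Within a library, ratios between mitochondrial genes do not depend on a scaling by a single factor per library. Quantile normalization is not such a scaling and can change them. The log2 ratio of summed rRNA to summed coding TPM was 2.62, 2.54 and 2.52 in EGCG + OE, 2.38, 2.36 and 2.37 in OE, and 2.12, 2.15 and 2.25 in control. No group overlapped another. EGCG + OE was above OE by 0.19, OE above control by 0.20, and EGCG + OE above control by 0.39, each with p = 0.1 in the two-sided exact permutation test, the smallest possible, and 0.171 after adjustment over 12 tests. With the copies added these differences were 0.20, 0.18 and 0.39. EGCG + OE exceeded OE by 0.22 with mt-Rnr2 alone in the ratio and by 0.04 with mt-Rnr1 alone. A removal of rRNA in library preparation, if made, would act on this ratio, and its part was not tested.

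The ratio of complex I to complex IV genes, taken over the 6 mt-Nd genes other than mt-Nd6 and the 3 mt-Co genes, separated the EGCG + OE libraries from the rest. Its log2 value was -1.24, -1.003 and -1.08 in EGCG + OE, -0.51, -0.74 and -0.65 in OE, and -0.33, -0.39 and -0.68 in control. EGCG + OE was below OE by a difference of -0.47 and below control by a difference of -0.64 (two-sided exact permutation test, p = 0.1 each, the smallest possible, 0.171 after adjustment), and OE and control overlapped (-0.17, exact permutation p = 0.3, 0.327 after adjustment). With the copies added the differences were -0.26, -0.50 and -0.24 in the same order, and the 3 groups no longer overlapped. As deposited mt-Co1 made up most of the mt-Co sum, with means of 4656 TPM in EGCG + OE and 3133 TPM in OE. The means in the same groups were 351.3 and 270.8 TPM for mt-Co2, and 839.1 and 1077 TPM for mt-Co3. The ratio was not computed without mt-Co1.

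**Figure D5:**
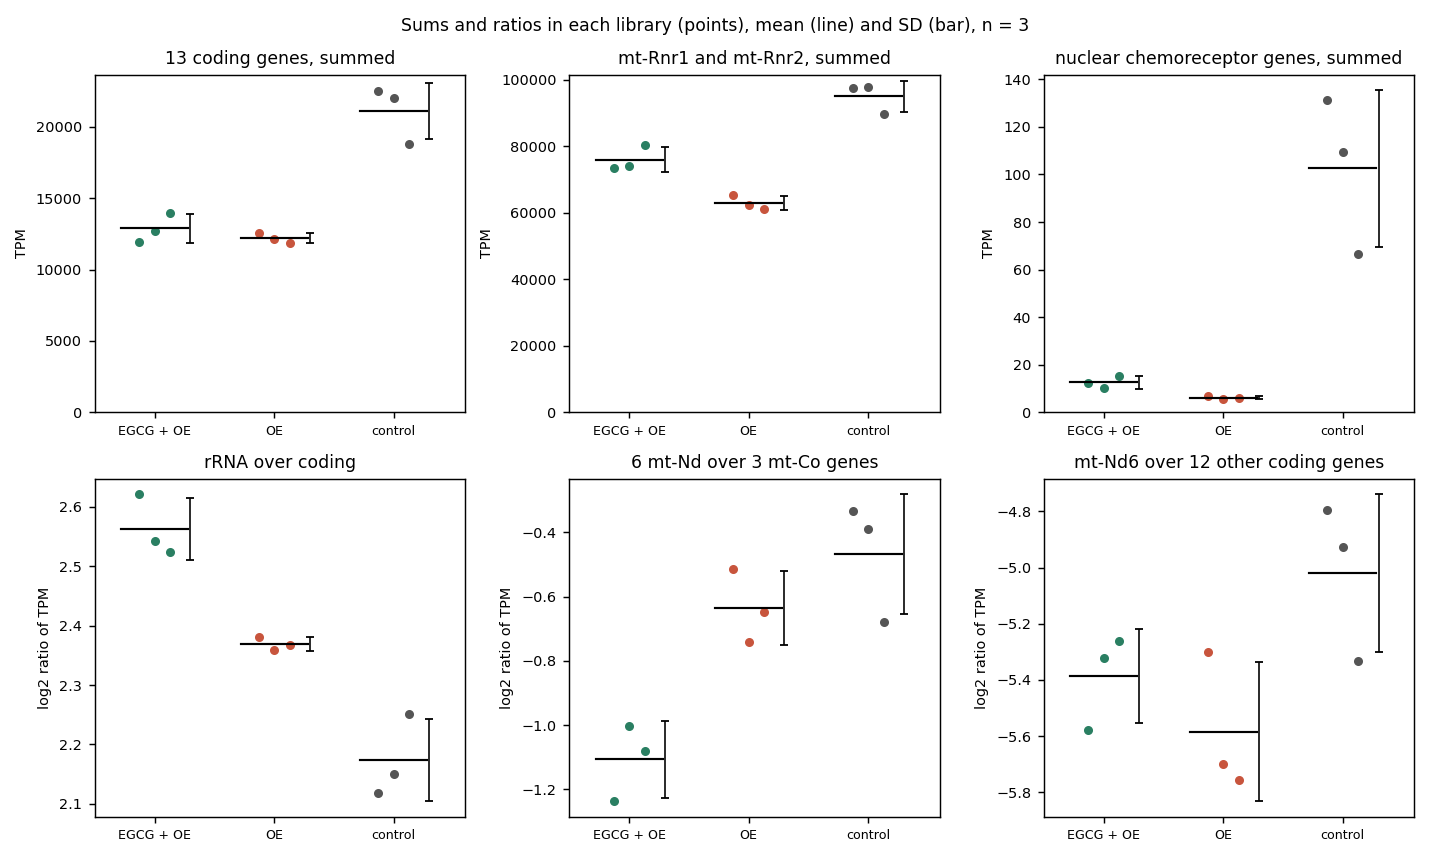
Sums of TPM (top, from 0) and log2 ratios of TPM (bottom, axes not from 0) in each library of EGCG + OE, OE and control; points are libraries, lines are means and bars are SD with n = 3. The coding and rRNA sums are highest in control, as is the chemoreceptor sum, and the rRNA to coding ratio lies apart in all 3 groups.

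On the opposite strand only 1 gene had values, mt-Nd6, the complex I subunit gene that is transcribed against the other 12. The 8 tRNA genes on its strand were all listed at 0. The gene mt-Nd6 overlaps the end of mt-Nd5 by 14 bases, and the last 40 bases of both genes are printed to show this overlap. They run 5′ to 3′ on the strand of each gene, from the GENCODE M21 transcripts of GRCm38, with the shared 14 bases in capitals.
mt-Nd5: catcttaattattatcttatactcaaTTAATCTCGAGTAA
mt-Nd6: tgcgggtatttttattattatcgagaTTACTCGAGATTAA

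The strands also differ in composition: G makes up 28.1% of the bases of mt-Nd6 read in its own direction, and 5.9% in mt-Atp8 to 16.1% in mt-Co1 among the other coding genes. The libraries were made with a stranded kit, per the labels' protocols, and the sources used here give no strand setting for the estimation. Without it, whether reads from the other strand were kept out of the mt-Nd6 values is not known. The values below may therefore not be those of its strand alone. In TPM mt-Nd6 had 245.2, 310.3 and 354.6 in EGCG + OE, 310.1, 229.7 and 215.9 in OE, and 780.2, 699.9 and 455.1 in control. In these values it moved with most genes of the other strand, with both other groups below control and overlapping each other. Its log2 fold change in OE against control was -1.33 ± 0.221 (limma, adjusted p = 0.000750), and in EGCG + OE against OE it was 0.27 ± 0.221 (adjusted p = 0.330).

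Relative to the 12 other coding genes, the level of mt-Nd6 overlapped between the groups. The log2 ratio was -5.58, -5.32 and -5.26 in EGCG + OE, -5.30, -5.70 and -5.75 in OE, and -4.80, -4.93 and -5.33 in control, and 1 OE library lay above the lowest control library. The differences were -0.57 for OE against control (two-sided exact permutation test, p = 0.2, 0.3 after adjustment over 12 tests), 0.20 for EGCG + OE against OE (p = 0.3, 0.327 after adjustment) and -0.37 for EGCG + OE against control (p = 0.3, 0.327 after adjustment). Against its overlapping neighbour alone, the log2 ratio of mt-Nd6 to mt-Nd5 was -0.33, -0.20 and -0.18 in EGCG + OE, -0.40, -0.34 and -0.38 in OE, and 0.064, 0.00085 and -0.11 in control. Control lay above both other groups, and the nearest EGCG + OE and OE libraries were almost level. That ratio was looked at after the values were seen and was not tested. Across the control libraries both ratios fell in the same order as the chemoreceptor sum, which was 131.3, 109.6 and 66.5 TPM. The part of that signal in the ratios was not tested.

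Along the strand that carries the other 12 coding genes, the fold changes were compared with position and with gene length. Ordered from mt-Nd1 to mt-Cytb, the genes at the start of the order had the lower fold changes in OE against control, and the Spearman correlation of the fold change with the order over the 12 genes was 0.58 as deposited and 0.69 with the copies added. For EGCG + OE against OE it was -0.62 and -0.57, and for EGCG + OE against control 0.18 and 0.10. The correlation with gene length was of similar size as deposited, at -0.46 for OE against control, 0.46 for EGCG + OE against OE and -0.19 for EGCG + OE against control, and with the copies added it was -0.35, 0.20 and -0.077. Position and length were not separated. These are descriptions over genes that share their libraries and their precursor RNA, and the comparisons share libraries.

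The nucleus supplies the enzymes that transcribe, process and stabilise mitochondrial RNA. The counts of their genes stand beside 38.2% of all tested genes higher and 21.3% lower in OE against control, and 18.8% higher and 34.1% lower in EGCG + OE against OE. Of 11 genes for transcription of the mitochondrial genome 3 rose in OE against control (27.3%), 0 fell and 8 did not pass, with a median log2 fold change of 0.11, next to 0.10 for all tested genes. The first of these, Mrpl12, encodes a ribosomal protein that also binds the mitochondrial RNA polymerase and was at 9.30 ± 0.295 TPM in OE against 6.27 ± 0.381 TPM in control (limma, adjusted p = 0.00109), and the elongation factor Tefm was at 4.82 ± 0.159 against 4.07 ± 0.299 TPM (adjusted p = 0.0487). With EGCG 3 of the 11 fell against OE and 0 rose: Mrpl12 was at 6.51 ± 0.996 TPM (adjusted p = 0.00218), Tefm at 3.72 ± 0.415 TPM (adjusted p = 0.00852) and Mterf4, which acts in assembly of the mitochondrial ribosome, at 5.03 ± 0.162 TPM against 6.26 ± 0.398 TPM in OE (adjusted p = 0.0111). With median-ratio, quantile or nuclear scaling only Mrpl12 of these rose in OE, and with median-ratio or nuclear scaling only Mrpl12 fell with EGCG.

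Of 24 genes for RNA processing and tRNA maturation 13 rose in OE (54.2%), 4 fell (16.7%) and 7 did not pass (median 0.235), and with EGCG 5 rose (20.8%) and 11 fell (45.8%) against OE (median -0.185). Scaling moved these counts: with median-ratio scaling 10 rose and 5 fell in OE, beside 28.5% and 30.9% of all genes, and 6 rose and 6 fell with EGCG, beside 26.5% and 24.6%. Elac2, the endonuclease that trims the 3′ ends of tRNA precursors, was at 3.36 ± 0.266 TPM in EGCG + OE, 6.08 ± 0.256 TPM in OE and 3.40 ± 0.231 TPM in control (limma, adjusted p = 4.32e-05 for EGCG + OE against OE and 3.36e-05 for OE against control). Qtrt1, the catalytic subunit of the enzyme that puts queuine into tRNAs, was at 4.22 ± 0.140 TPM in EGCG + OE, 6.69 ± 0.656 TPM in OE and 3.04 ± 0.168 TPM in control, and it differed in all comparisons. Nsun2, a cytosine methyltransferase of tRNAs, went the other way, with 46.6 ± 3.46 TPM in EGCG + OE, 27.6 ± 2.19 TPM in OE and 48.0 ± 2.74 TPM in control (adjusted p = 6.67e-05 and 3.39e-05). Mrm2, which methylates the large mitochondrial rRNA, was at 2.00 ± 0.180 TPM in EGCG + OE and 3.66 ± 0.0513 TPM in OE (adjusted p = 6.14e-05).

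Of 16 genes for RNA stability and decay 9 rose in OE (56.2%), 1 fell (6.25%) and 6 did not pass (median 0.21), and with EGCG 2 rose (12.5%) and 9 fell (56.2%) against OE (median -0.21). With median-ratio scaling 5 rose and 3 fell in OE, and 3 rose and 4 fell with EGCG. Pnpt1, the polynucleotide phosphorylase of the mitochondrial degradosome, was at 8.10 ± 0.217 TPM in EGCG + OE, 9.997 ± 0.305 TPM in OE and 8.05 ± 0.344 TPM in control (limma, adjusted p = 0.00187 and 0.00126). The oligoribonuclease Rexo2 was at 17.4 ± 0.847 TPM in EGCG + OE, 25.1 ± 0.816 TPM in OE and 22.1 ± 0.745 TPM in control, lower with EGCG than in either (adjusted p = 7.82e-05 and 0.00715). Lrpprc, which stabilises mitochondrial mRNAs, was at 17.5 ± 0.662 TPM in EGCG + OE and 21.8 ± 0.709 TPM in OE (adjusted p = 0.00293). Fastkd5, which acts on mRNAs whose ends no tRNA marks, was at 1.97 ± 0.243 TPM in EGCG + OE, 2.79 ± 0.285 TPM in OE and 1.52 ± 0.148 TPM in control (adjusted p = 0.00781 and 0.000382).

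Genes for replication and upkeep of mitochondrial DNA moved both ways, with 5 of 17 higher in OE (29.4%), 4 lower (23.5%) and 8 that did not pass (median 0.07), and 3 higher and 7 lower with median-ratio scaling. Top1mt, the mitochondrial topoisomerase, was at 5.54 ± 0.630 TPM in EGCG + OE, 4.20 ± 0.160 TPM in OE and 6.44 ± 0.570 TPM in control (limma, adjusted p = 0.00969 and 0.000696). Slc25a36, a pyrimidine nucleotide carrier of the inner membrane, was at 29.1 ± 4.02 TPM in EGCG + OE, 19.8 ± 0.1 TPM in OE and 30.1 ± 0.232 TPM in control (adjusted p = 0.000807 and 0.000347). With EGCG 5 of these 17 genes rose against OE and 5 fell, and against control 1 was higher, the DNA ligase Lig3. Scaling moved the counts against OE to 6 higher and 1 lower (median-ratio), 5 and 2 (quantile) and 7 and 0 (nuclear). Beside these stood 26.5% and 24.6%, 23.5% and 25.9%, and 29.0% and 21.8% of all genes. Of 13 nuclear regulators of mitochondrial biogenesis 10 were tested, and 3 rose and 2 fell in OE, against 1 and 5 with median-ratio scaling. In OE against control, neither this list nor that of mitochondrial DNA upkeep had a direction that held across scalings. Esrrg, an oestrogen-related receptor that binds genes of oxidative metabolism, was at 2.28 ± 0.108 TPM in EGCG + OE, 5.90 ± 0.536 TPM in OE and 2.61 ± 0.369 TPM in control (adjusted p = 1.82e-05 and 2.51e-05).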

How the data were processed

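Total RNA from 9 MIN6 libraries, 3 per group, was measured. An RNeasy mini kit and a TruSeq Stranded Total RNA kit were used, per the labels' protocols. The submitters' processing notes name STAR 2.7.1a, RSEM 1.2.31, cutadapt 2.8, bcl2fastq 2.20 and FastQC 0.11.9 and the build GRCm39, without annotation or strand setting. The authors deposited TPM per transcript, in which reads that fit several transcripts are shared out by estimation and which sums to 1 total in every library, so a rise of abundant RNAs lowers all other values.

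Identifiers were joined to the GENCODE M21 annotation of GRCm38 for names, strand, order and sequence. Of 142435 identifiers 138346 (97.13%) matched, giving 52408 genes, and TPM was summed per gene. The unmatched identifiers held 18.0% to 20.6% of a library. Coordinates are not printed because the builds differ. Mitochondrial genes were searched against all annotated transcripts with blastn 2.17.0. Copy TPM was added to its mitochondrial gene weighted by transcript length, and this choice followed the values.

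The 11950 genes that reached 1 TPM in 3 or more libraries entered a fit of limma 3.58.1 (R 4.3.3; lmFit, contrasts, eBayes with trend) on log2(TPM + 1), which understates the change of low genes, with all 9 libraries together. Tests were two-sided, with Benjamini-Hochberg adjustment over all these genes and a threshold of 0.05. Sums and ratios used exact permutation tests. TPM is given with SD and log2 fold changes with the SE of the fit. The fit was also run on simulated data with the real means and spreads (11950 genes, 5 draws). The comparisons were OE against control, EGCG + OE against OE and EGCG + OE against control. The fit recovered 71.0%, 71.6% and 68.2% of the genes given a log2 change of 0.5, and 4.22%, 5.19% and 3.95% of the calls were false. Each draw changed only a small part of the genes, with noise independent between genes. In the data 59.5%, 53.0% and 18.2% of genes were called, so these shares need not carry over.

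All 37 members are accounted for; from each nuclear list up to 4 called genes with the smallest adjusted p could be named per comparison. Members and lists were chosen with earlier results of these data known. Alternatives covered the pseudocount, the filter, 3 scalings, which libraries were fitted, the variance trend, a replicate block, each library left out and the copies. Python 3.11.15, pandas 2.3.3, scipy 1.17.1 and matplotlib 3.10.9 did the rest.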

Additional observations from a re-analysis of the deposited data

How the results depend on the processing

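Of the 45 tests of a mitochondrial gene, the values that changed sign were mostly small and not called. For OE against control the sign turned for mt-Nd3 with copies (-0.71, and -0.79 with nuclear scaling as well), for mt-Co3 with copies and nuclear scaling (-0.039), and for mt-Nd4l with quantile normalization (-0.019), leave-one-out (-0.082 to 0.354, below 0 without control replicate 3 or OE replicate 1), with copies (-0.56) and with copies and nuclear scaling (-0.65). For EGCG + OE against OE it turned for mt-Nd1 with median-ratio scaling (0.10), nuclear scaling with or without copies (0.13) and leave-one-out (-0.09 to 0.081), for mt-Atp8 with median-ratio (0.051), quantile (0.07) and nuclear scaling with or without copies (0.086) and leave-one-out (-0.159 to 0.009), and with copies and nuclear scaling for mt-Atp6 (0.13) and mt-Nd3 (0.14). For EGCG + OE against control it turned for mt-Co2 with quantile (0.077) and nuclear scaling (0.011) and leave-one-out (-0.18 to 0.09), for mt-Co3 with copies (-0.28, and -0.22 with nuclear scaling), and for mt-Nd3 with leave-one-out (-0.016 without control replicate 2, up to 0.338), with copies (-0.72) and with copies and nuclear scaling (-0.65). Copies change which TPM is summed; the cause of the other changes was not tested.

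Mitochondrial genes called for EGCG + OE against OE, 3 in all, came to 6 with the libraries of those groups alone, 5 with copies and nuclear scaling, and 2 to 6 over the libraries left out. All genes called for OE against control, 7106, came to 12395 of 39165 without a filter. For EGCG + OE against control, 2172 genes came to 4775 without a filter, 895 with those libraries alone, and 735 to 3239 over the libraries left out. The split of higher to lower calls moved with scaling, for OE against control 4561 to 2545 as deposited, 3409 to 3689 with median-ratio, 3559 to 3390 with quantile and 3812 to 3219 with nuclear scaling; for EGCG + OE against OE 2250 to 4080, 3163 to 2943, 2814 to 3098 and 3462 to 2607; for EGCG + OE against control 1323 to 849, 1186 to 1167, 1211 to 1202 and 2315 to 664.

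The titles give the replicate numbers without a pairing. Correlations of deviations ran from -0.021 to 0.214 between same-numbered libraries and from -0.238 to 0.121 between the others. A pairing is neither shown nor excluded by these values. With the number as a replicate block 12, 2 and 9 mitochondrial genes were called, mt-Nd4l being lost (adjusted p = 0.058), and 6723, 5882 and 1221 of all genes. The tRNA ratios and their alternatives were not run, since all tRNA values are 0. Depth is unknown and limits are set by 3 libraries per group.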
